A study of Homo sapiens with 14 samples.

Results

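The genes of the NF-kappa-B transcription factor and of the feedback loop that limits it were followed on every array of a study of breast cancer cells. The set was chosen by name, with earlier results of these data known, and holds 10 genes. They are the 5 subunits RELA, NFKB1, NFKB2, RELB and REL, the inhibitor genes NFKBIA, NFKBIE and NFKBIZ, and the feedback genes TNFAIP3 and BIRC3. Every probe set of the HG-U133 Plus 2.0 array annotated to 1 of these genes and to no other gene was taken. This gave 19 probe sets for 9 of the 10 genes, among 41091 probe sets and 19775 genes with 1 symbol. BIRC3 had no probe set under its symbol in the annotation used and was not analysed here.

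RNA came from LY2 cells, an antioestrogen-resistant line derived from MCF-7 breast cancer cells, and was measured on 14 arrays in 4 groups. All cells had been kept in 10 nM 4-hydroxytamoxifen, the active metabolite of tamoxifen, and then for 72 hours without it, and all were transfected with 40 nM siRNA 24 hours before treatment. In the untreated groups, cells with scrambled control siRNA (4 arrays) or SRC-1 siRNA (4 arrays) received 0.01% ethanol for 2 hours. In the tamoxifen groups, cells with control siRNA (4 arrays) or SRC-1 siRNA (2 arrays, replicates 1 and 3) received 100 nM 4-hydroxytamoxifen for 2 hours. SRC-1, encoded by NCOA1, is a coactivator that steroid receptors and other transcription factors recruit to their target genes. The design asks which genes depend on SRC-1 in resistant cells, with and without the drug. The model is 1 cell line with 1 SRC-1 siRNA product and 1 scrambled control, so an effect of SRC-1 loss and an effect of that siRNA product cannot be told apart.

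Values are log2 signals as deposited. Array medians lay between 3.44 and 3.51, and 2 of the 19 probe sets, both of NFKB2, had a mean below the median probe set (3.47). The knockdown was visible in NCOA1 itself. All 4 of its probe sets fell, and the brightest, 209106_at, read 11.14, 11.52, 11.37 and 11.18 on the untreated control-siRNA arrays and 10.32, 9.96, 10.01 and 10.54 on the untreated SRC-1-siRNA arrays. That is 53.2% lower (limma adjusted p = 0.000639), and 53.7% lower under tamoxifen (limma adjusted p = 0.00196). All 12 luminal epithelial markers had a mean above the median probe set in every group, and 1 of 8 fibroblast markers did. Of 13 measured immune cell markers, 0 to 2 lay above it, depending on the group, and of 6 endothelial markers 0 did, except for 1 in untreated SRC-1-siRNA cells. The mean of the immune markers on an array ranged from 2.34 to 2.40 in untreated control-siRNA arrays and from 2.36 to 2.48 in untreated SRC-1-siRNA arrays. Under tamoxifen it ranged from 2.33 to 2.37 with control siRNA and from 2.35 to 2.51 with SRC-1 siRNA. The mean of the endothelial markers in untreated cells ranged from 2.45 to 2.53 with control siRNA and from 2.58 to 2.69 with SRC-1 siRNA, without overlap. Under tamoxifen it ranged from 2.47 to 2.51 with control siRNA and, lower, from 2.36 to 2.44 with SRC-1 siRNA. PECAM1 was the only one of the 6 called in untreated cells, higher by 0.73 (limma adjusted p = 0.0255, and 0.0862 with the replicate number in the model). Under tamoxifen the endothelial marker CDH5 was lower (change -0.36, limma adjusted p = 0.00273) and the immune marker ITGAM higher (0.86, limma adjusted p = 0.0253). The part of these markers in the results below was not tested.

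The replicate numbers left almost no mark on the levels. The mean of the arrays numbered 1 and that of the arrays numbered 3, each over all 4 groups, differed by a median of 0.0151 over probe sets, beside a median SD of 0.110 within groups. The F statistic of the replicate number after the group means had a median of 0.0428, where independent arrays would give 0.871, and 98.8% of probe sets lay under that value. The sources used here do not state how the signals were adjusted before deposit. An adjustment that takes out differences between replicate numbers would leave values like these. Under such an adjustment the order of arrays within a group, and whether groups overlap, would no longer be that of the unadjusted signals, and p-values from a fit without the number would be too small. A shift common to all arrays of a number cancels in the differences between same-numbered arrays and in a fit that holds the number as a term.

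NF-kappa-B is a dimer of Rel-family proteins that waits in the cytoplasm, bound by inhibitor proteins of the I-kappa-B family. Signals from cytokine receptors, Toll-like receptors or viral RNA sensors activate a kinase complex that marks the inhibitor for destruction, and the freed dimer enters the nucleus and binds kappa-B sites in DNA. Among its own targets are genes of inhibitors, which ends the response, and of some of its subunits, which sustains it. In breast cancer its activity is best known in cells that no longer depend on oestrogen.

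The bases before the start sites of these genes are shown because NF-kappa-B acts on its targets through kappa-B sites. RefSeq start sites (GRCh38.p14) were in the table used for 8 of the 10 genes, all but RELB and NFKBIE. The 250 bases before each start were searched on both strands for the 10-letter kappa-B consensus, and matches that overlap were joined. Capitals mark the matches, and each sequence runs in the direction of transcription.
TNFAIP3, 71 to 42 bases before the start (chr6:137867188-137867217, plus strand): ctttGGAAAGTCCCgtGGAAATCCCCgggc
NFKBIA, 100 bases before the start (chr14:35404750-35404849, minus strand): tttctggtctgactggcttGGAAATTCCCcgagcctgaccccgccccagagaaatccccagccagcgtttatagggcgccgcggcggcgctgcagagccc
REL, 100 bases before the start (chr2:60881474-60881573, plus strand): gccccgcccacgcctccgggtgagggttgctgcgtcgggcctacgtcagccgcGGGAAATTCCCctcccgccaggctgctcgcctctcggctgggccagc
NFKBIZ, before its first start (chr3:101827757-101827786, plus strand): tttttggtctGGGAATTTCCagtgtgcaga
NFKBIZ, before its second start (chr3:101849265-101849294, plus strand): gcgcgctgtcGGGGTTTCCCggtgaagggc
NFKB1, 100 bases before its first start (chr4:102501259-102501358, plus strand): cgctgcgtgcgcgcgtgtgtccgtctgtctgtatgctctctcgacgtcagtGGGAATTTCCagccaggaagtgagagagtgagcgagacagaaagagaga
NFKB2, before its last annotated start (chr10:102395674-102395703, plus strand): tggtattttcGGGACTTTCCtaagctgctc

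A match lay before at least 1 start of 7 of these 8 genes, all but RELA. Of all 35116 promoters in the table, 9.96% held a match, and of all 27305 genes, 11.8% did. The 8 genes were chosen by name as parts of the pathway, and several have more than 1 start, so their count is a description. TNFAIP3 carried 2 matches close together, at 67 to 58 and at 55 to 46 bases before a start that lies inside the annotated span of the gene (chromosome 6, 137866349 to 137883312). The match of REL was an 11-base stretch at 47 to 37 bases before the start, and that of NFKBIA lay at 81 to 72 bases. NFKB2 held 4 matches before 2 of its 3 starts, and BIRC3 held 2. NFKB1 and NFKB2 hold matches as well, and their probe sets did not pass the test in any comparison below. A match is a run of letters and does not show that the factor binds there.

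**Figure D1:**
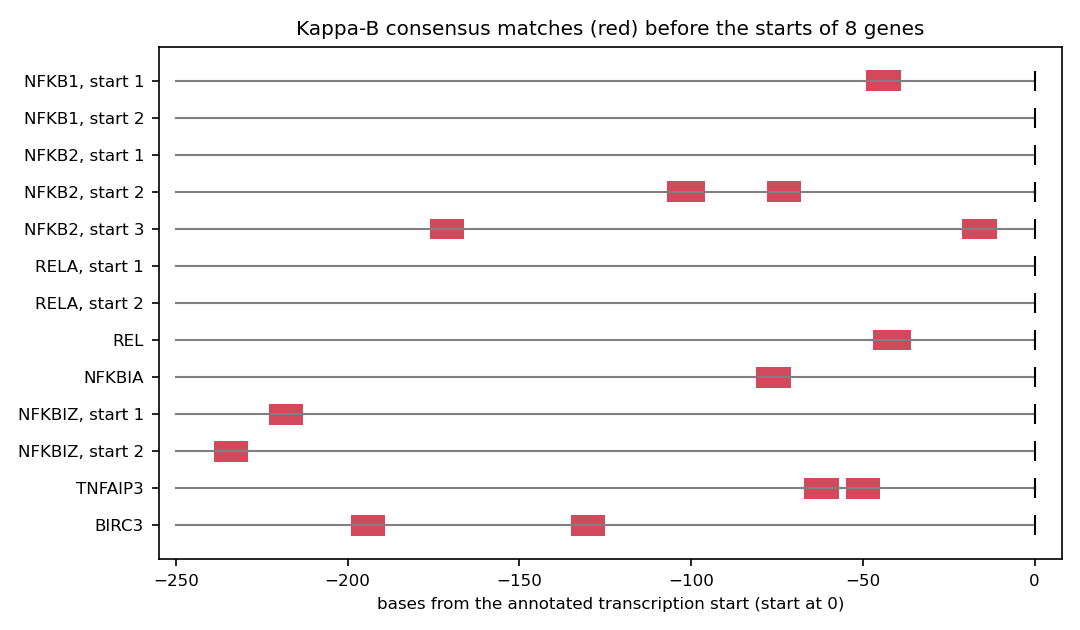
Kappa-B consensus matches (red) in the 250 bases before each annotated start of the 8 genes found in the promoter table, with distance from the start in bases on the x axis. The 2 matches of TNFAIP3 lie between 67 and 46 bases before its start, and neither start of RELA has a match.

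Knockdown of SRC-1 in untreated cells was followed by higher RNA of TNFAIP3, the inhibitor genes, REL and RELB, and no probe set of RELA, NFKB1 or NFKB2 passed. Of the 19 probe sets, 13 were higher and 0 lower at a limma adjusted p under 0.05, covering 6 of 9 genes: TNFAIP3, NFKBIZ, NFKBIA, NFKBIE, REL and RELB. Among all 54613 probe sets tested, 10.4% passed in either direction and 4.99% were higher. The median change of the 19 probe sets was 0.50 on the log2 scale, beside 0.00 for all probe sets. In 11 of the 19, every SRC-1-siRNA array lay above every control-siRNA array, beside 7.92% of all probe sets. A fit that adds the replicate number as a term gave the same changes. Its error was larger in 18 of the 19 probe sets and smaller in 1, TNFAIP3 202644_s_at. It kept 11 of the 13 calls, losing RELB and NFKBIE. How many of all probe sets passed in that fit was not computed.

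**Figure D2:**
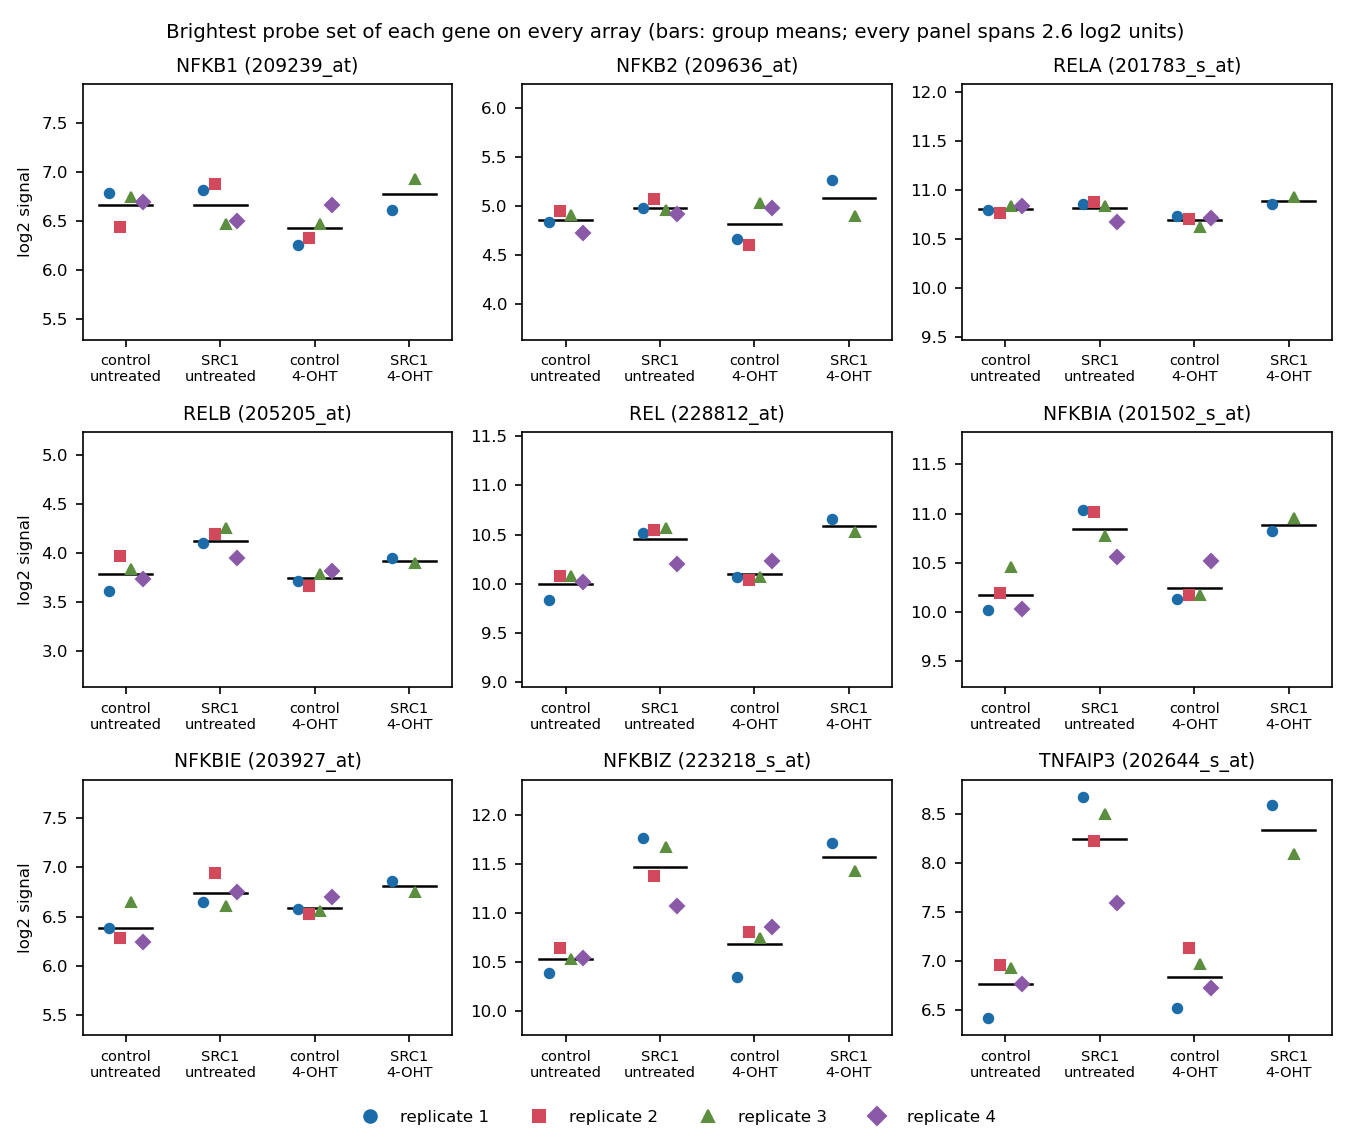
Log2 signal (y axis) of the brightest probe set of each gene on all 14 arrays, by siRNA and treatment (x axis), with 4-OHT standing for 4-hydroxytamoxifen; symbols show the replicate number, bars are group means, and every panel spans the same number of log2 units. TNFAIP3, NFKBIZ, NFKBIA and REL lie higher in both SRC-1-siRNA groups, and RELA spans 10.62 to 10.93 over all groups.

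RELA encodes p65, the subunit that carries the activation domain of the most common dimer. Its brightest probe set, 201783_s_at, read 10.79, 10.76, 10.84 and 10.84 on the untreated control-siRNA arrays and 10.86, 10.88, 10.84 and 10.67 on the untreated SRC-1-siRNA arrays. The groups overlapped, and the change was 0.00 ± 0.05 (SE, log2; 95% interval -0.11 to 0.12; limma adjusted p = 0.979). This interval comes from the fit without the replicate number and reaches 0.12 upward. With the number in the model the SE was larger, 0.067 against 0.053. The dimmer RELA probe set, 209878_s_at, changed by 0.08 ± 0.07 and did not pass (95% interval -0.07 to 0.22, limma adjusted p = 0.535).

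NFKB1 encodes p105, the precursor of the p50 subunit that pairs with p65. Its probe set, 209239_at, read 6.78, 6.43, 6.74 and 6.69 with control siRNA and 6.81, 6.87, 6.47 and 6.50 with SRC-1 siRNA, and the groups overlapped. The change was 0.00 ± 0.12 (limma adjusted p = 0.999), with a 95% interval of -0.26 to 0.26. NFKB2 encodes p100, the precursor of p52 in the slower, alternative arm of the pathway. Its brightest probe set, 209636_at, read 4.84, 4.95, 4.91 and 4.73 with control siRNA and 4.98, 5.07, 4.96 and 4.92 with SRC-1 siRNA. All SRC-1-siRNA arrays but replicate 4 lay above the highest control, and the change of 0.13 ± 0.10 did not pass (95% interval -0.10 to 0.35; limma adjusted p = 0.491). The other NFKB2 probe sets, 207535_s_at and 211524_at, changed by 0.03 and -0.09 at signals below the median probe set.

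RELB encodes the subunit that pairs with p52, and its gene is a known NF-kappa-B target. Its probe set, 205205_at, read 3.61, 3.97, 3.84 and 3.74 with control siRNA and 4.11, 4.19, 4.25 and 3.95 with SRC-1 siRNA. SRC-1-siRNA replicate 4 lay below control replicate 2, and the other SRC-1-siRNA arrays lay above all controls. The rise was 0.33 ± 0.08, or 1.26-fold (limma adjusted p = 0.0186), and the call ended with the replicate number in the model (limma adjusted p = 0.0583). It also ended without control replicate 1 (0.0522) or 4 (0.0503) and without SRC-1-siRNA replicate 2 (0.0557) or 3 (0.0539), by limma adjusted p.

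REL encodes c-Rel, a subunit with its own activation domain that is best known in lymphocytes. Its brightest probe set, 228812_at, read 9.83, 10.08, 10.08 and 10.01 with control siRNA and 10.51, 10.54, 10.56 and 10.20 with SRC-1 siRNA. No array of the groups overlapped, and SRC-1-siRNA replicate 4 was the lowest of its group. The rise was 0.45 ± 0.09, or 1.37-fold (limma adjusted p = 0.00495). Without all arrays numbered 1 the call ended (limma adjusted p = 0.0572). All 4 other REL probe sets rose too, each with groups that did not overlap. The smallest of these rises was 0.68 ± 0.09 at 235242_at (limma adjusted p = 0.000985) and the largest 0.94 ± 0.15 at 206036_s_at (limma adjusted p = 0.00246). At 235242_at the controls read 8.80, 8.79, 8.95 and 8.92 and the SRC-1-siRNA arrays 9.64, 9.61, 9.65 and 9.28, where replicate 4 again stood below the others. At 206035_at the arrays read 5.32, 5.14, 5.40 and 5.13 with control siRNA and 5.80, 6.17, 5.92 and 6.14 with SRC-1 siRNA, a 1.69-fold rise (limma adjusted p = 0.000602). Here replicate 4 was among the higher SRC-1-siRNA arrays and replicate 1 the lowest. All 5 REL probe sets gave the same direction, with folds from 1.37 to 1.92.

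NFKBIA encodes I-kappa-B-alpha, the inhibitor that NF-kappa-B resynthesises to end its own response. Its brightest probe set, 201502_s_at, read 10.02, 10.19, 10.46 and 10.03 with control siRNA and 11.04, 11.01, 10.77 and 10.56 with SRC-1 siRNA. The groups did not overlap, though control replicate 3 came close to SRC-1-siRNA replicate 4. The rise was 0.67 ± 0.13, or 1.59-fold (limma adjusted p = 0.00488). The call ended without all arrays numbered 1 (limma adjusted p = 0.0606) or all numbered 2 (0.0575). The second probe set, 231699_at, read 4.53, 4.66, 4.72 and 4.61 with control siRNA and 5.21, 5.17, 5.25 and 4.89 with SRC-1 siRNA. It rose by 0.50 ± 0.10, or 1.41-fold (limma adjusted p = 0.00773), again without overlap.

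NFKBIE encodes I-kappa-B-epsilon, a second classical inhibitor with slower kinetics. Its probe set, 203927_at, read 6.39, 6.28, 6.64 and 6.24 with control siRNA and 6.65, 6.94, 6.60 and 6.75 with SRC-1 siRNA. The groups overlapped, with control replicate 3 the highest control and SRC-1-siRNA replicate 3 the lowest of its group. The rise of 0.35 ± 0.09 passed (limma adjusted p = 0.0290) and did not with the replicate number in the model (limma adjusted p = 0.107). Leaving out control replicate 1, 2 or 4 gave limma adjusted p of 0.0601, 0.0825 and 0.0833, and leaving out SRC-1-siRNA replicate 2 or 4 gave 0.0851 and 0.0556.

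NFKBIZ encodes I-kappa-B-zeta, a nuclear member of the inhibitor family that is induced by NF-kappa-B and also acts as a cofactor at some of its targets. Its brightest probe set, 223218_s_at, read 10.39, 10.64, 10.53 and 10.54 with control siRNA and 11.77, 11.37, 11.67 and 11.07 with SRC-1 siRNA. Each SRC-1-siRNA array lay above each control, replicate 1 highest and replicate 4 lowest. The rise was 0.94 ± 0.15, or 1.92-fold (limma adjusted p = 0.00178). The dimmer 223217_s_at read 3.60, 3.75, 3.40 and 3.82 with control siRNA and 5.11, 4.74, 4.92 and 4.16 with SRC-1 siRNA, with the same arrays at either end of the SRC-1-siRNA group. It rose by 1.09 ± 0.19, or 2.13-fold (limma adjusted p = 0.00371).

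TNFAIP3 encodes A20, a ubiquitin-editing enzyme that shuts off signalling between the receptors and the kinase complex. It had the largest changes of the 9 genes. Its brightest probe set, 202644_s_at, read 6.42, 6.96, 6.93 and 6.77 with control siRNA and 8.68, 8.22, 8.50 and 7.59 with SRC-1 siRNA, with all SRC-1-siRNA arrays above all controls. The rise was 1.48 ± 0.22, or 2.79-fold (95% interval 1.02 to 1.94; limma adjusted p = 0.00135). The second probe set, 202643_s_at, read 3.84, 4.75, 4.81 and 3.62 with control siRNA and 6.55, 6.17, 6.35 and 6.48 with SRC-1 siRNA. Controls 1 and 4 were about 1 log2 unit below controls 2 and 3, while the SRC-1-siRNA arrays stood close together. Its rise was 2.13 ± 0.25, or 4.39-fold (limma adjusted p = 0.000488).

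**Figure D3:**
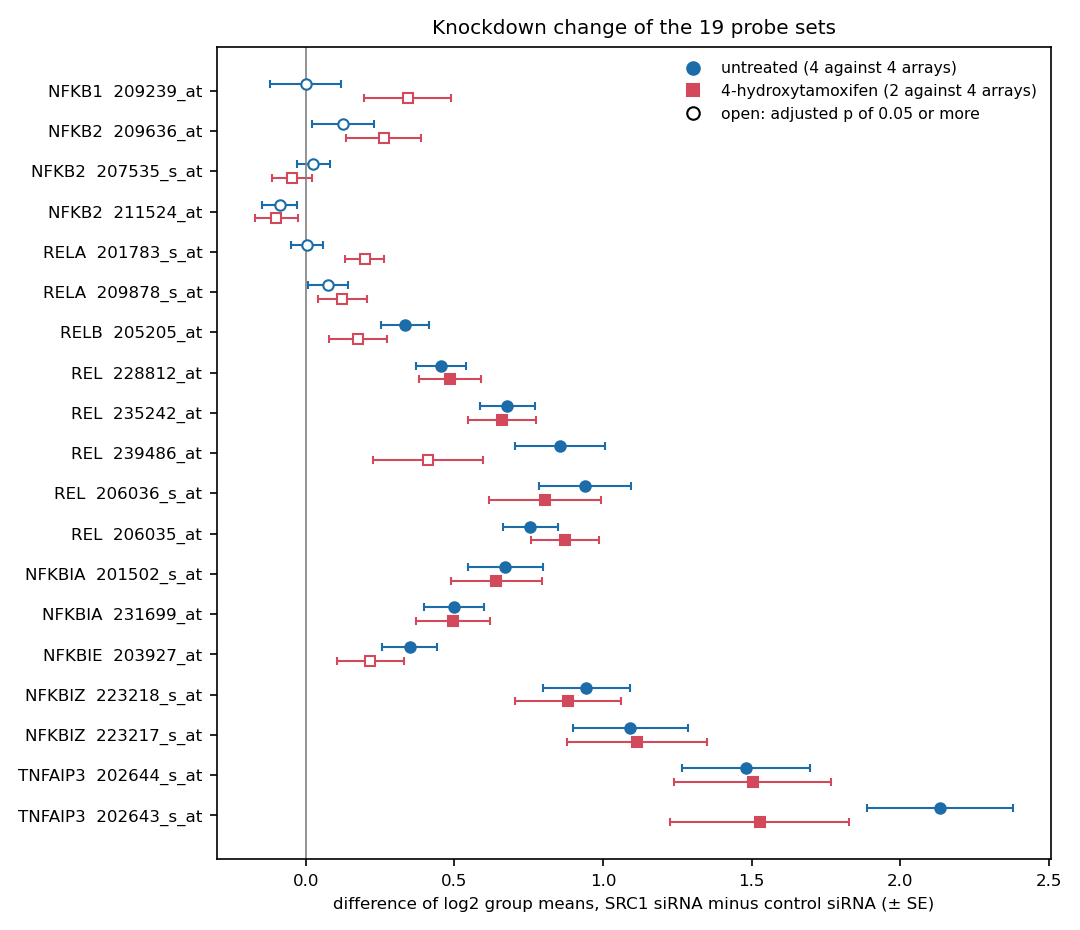
Difference of log2 group means, SRC-1 siRNA minus control siRNA, for the 19 probe sets (x axis), with bars of 1 SE from the limma fit; circles are untreated cells (4 against 4 arrays), squares tamoxifen-treated cells (2 against 4 arrays), and open symbols have an adjusted p of 0.05 or more. The 13 filled circles run from 0.33 (RELB) to 2.13 (TNFAIP3 202643_s_at).

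The size of the rise differed between replicate numbers. The labels number the replicates 1 to 4 in each untreated group without saying that a number marks a shared culture or day, so the differences between same-numbered arrays are a description. Over the 13 probe sets called higher, the median difference was 0.87 at number 1, 0.82 at number 2, 0.70 at number 3 and 0.53 at number 4. SRC-1-siRNA replicate 4 was the lowest of its group in 10 of the 13. All 13 were positive at numbers 1, 2 and 4, and 12 at number 3, where NFKBIE stood at -0.04.

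For TNFAIP3 202644_s_at the differences at numbers 1 to 4 were 2.26, 1.27, 1.57 and 0.83, and for TNFAIP3 202643_s_at they were 2.71, 1.42, 1.54 and 2.86. The 2 probe sets of this gene thus ordered the replicates differently, with number 4 smallest in the first and largest in the second. For NFKBIZ 223218_s_at the differences were 1.38, 0.73, 1.14 and 0.53, and for NFKBIA 201502_s_at they were 1.02, 0.82, 0.32 and 0.53. NCOA1 209106_at differed by -0.82, -1.56, -1.36 and -0.64 at the same numbers, so its fall was smallest at number 4 and next smallest at number 1. TNFAIP3 202644_s_at, NFKBIZ 223218_s_at and NFKBIA 201502_s_at differed most at number 1. NFKBIZ 223217_s_at differed by 1.51 at number 1 and 1.52 at number 3. Whether the depth of the knockdown bears on the size of these rises was not tested.

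**Figure D4:**
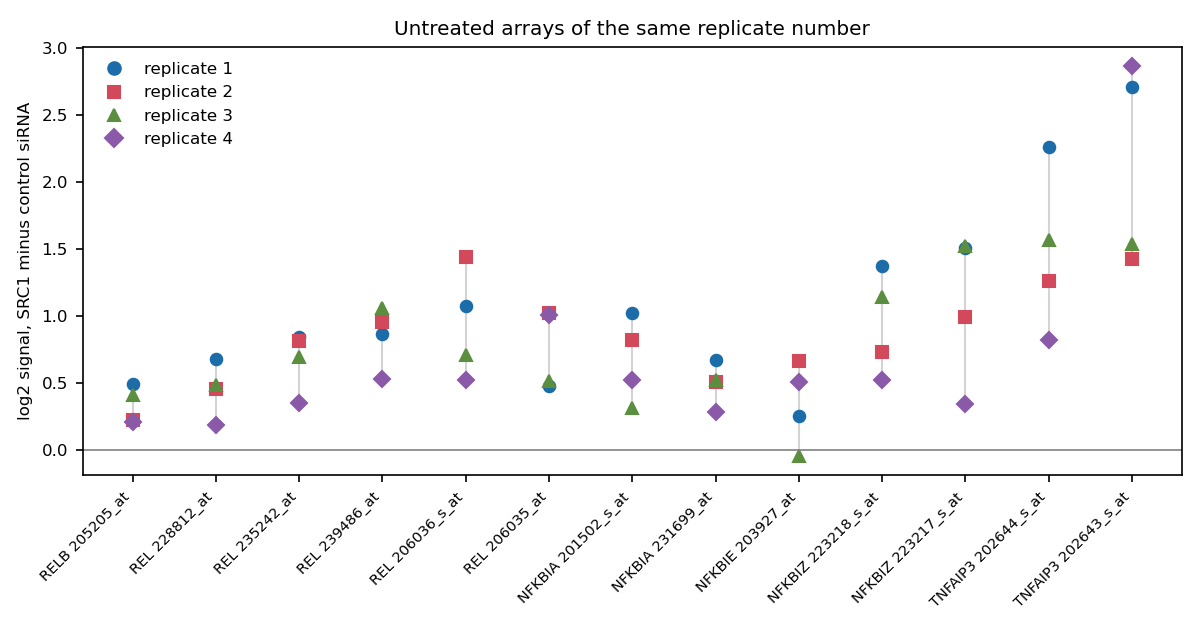
Difference of log2 signal between untreated SRC-1-siRNA and control-siRNA arrays of the same replicate number (y axis) for the 13 probe sets called higher (x axis), 1 symbol for each of 4 replicate numbers. All symbols but NFKBIE at number 3 (-0.04) lie above 0, and number 4 is lowest for most probe sets but highest for TNFAIP3 202643_s_at (2.86).

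Under 2 hours of 4-hydroxytamoxifen, the knockdown was again accompanied by higher TNFAIP3, NFKBIZ, NFKBIA and REL. Of the 19 probe sets, 10 were higher and 0 lower (limma adjusted p under 0.05), covering 4 of 9 genes. Of all probe sets tested, 13.5% passed in either direction and 5.76% were higher. The median change of the 19 was 0.49, beside -0.02 for all probe sets, and in 13 of them both SRC-1-siRNA arrays lay above all 4 controls, beside 14.9% of all probe sets. With the replicate number in the model 4 of the 10 calls remained, 2 of REL and both of TNFAIP3. Leaving out SRC-1-siRNA replicate 1 left 3 calls, leaving out all arrays numbered 1 left 2, and leaving out all arrays numbered 3 left 4.

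TNFAIP3 202644_s_at read 6.52, 7.13, 6.97 and 6.73 on the control-siRNA arrays and 8.59 and 8.09 on SRC-1-siRNA replicates 1 and 3, under tamoxifen. Both SRC-1-siRNA arrays lay clear of the controls, and the rise was 1.50 ± 0.26, or 2.84-fold (limma adjusted p = 0.00375). TNFAIP3 202643_s_at read 4.23, 4.61, 4.64 and 4.65 with control siRNA and 6.41 and 5.71 with SRC-1 siRNA, a 2.88-fold rise (limma adjusted p = 0.00668). Without SRC-1-siRNA replicate 1, the call of 202644_s_at ended (limma adjusted p = 0.0649).

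NFKBIZ 223218_s_at read 10.34, 10.80, 10.74 and 10.86 with control siRNA and 11.71 and 11.43 with SRC-1 siRNA under tamoxifen. The groups did not overlap, and the rise was 0.88 ± 0.18, or 1.84-fold (limma adjusted p = 0.00770, and 0.0593 with the replicate number in the model). Without SRC-1-siRNA replicate 1 the call ended (limma adjusted p = 0.0981). NFKBIZ 223217_s_at rose by 1.11 ± 0.24 (limma adjusted p = 0.00974). There SRC-1-siRNA replicate 3 read above replicate 1, the reverse of 223218_s_at.

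NFKBIA 201502_s_at read 10.13, 10.17, 10.17 and 10.52 with control siRNA and 10.82 and 10.95 with SRC-1 siRNA under tamoxifen. Control replicate 4 stood above the other controls and below both SRC-1-siRNA arrays. The rise was 0.64 ± 0.15, or 1.56-fold (limma adjusted p = 0.0167, and 0.0932 with the replicate number in the model). Without SRC-1-siRNA replicate 1 or 3 the limma adjusted p was 0.0808 and 0.103. NFKBIA 231699_at, at 4.28, 4.39, 4.60 and 4.67 with control siRNA and 5.13 and 4.83 with SRC-1 siRNA, rose 1.41-fold (limma adjusted p = 0.0207). NFKBIE 203927_at, at 6.58, 6.53, 6.55 and 6.70 with control siRNA and 6.86 and 6.75 with SRC-1 siRNA, differed by 0.22 ± 0.11 without overlap and did not pass (95% interval -0.03 to 0.46; limma adjusted p = 0.223).

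Between same-numbered tamoxifen arrays, the 13 probe sets called in untreated cells differed by a median of 0.85 at number 1 and 0.78 at number 3, and all 13 were positive at both numbers. TNFAIP3 202644_s_at differed by 2.07 and 1.12, TNFAIP3 202643_s_at by 2.18 and 1.07 and NFKBIZ 223218_s_at by 1.37 and 0.69, larger at number 1 in each. NFKBIA 201502_s_at differed by 0.70 and 0.78 and was slightly larger at number 3.

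Of the subunits under tamoxifen, REL passed at 4 of its 5 probe sets. REL 228812_at read 10.07, 10.04, 10.07 and 10.23 with control siRNA and 10.65 and 10.52 with SRC-1 siRNA, a 1.40-fold rise (limma adjusted p = 0.0101, and 0.0731 with the replicate number in the model). Without SRC-1-siRNA replicate 1 the call ended (limma adjusted p = 0.108). REL 206035_at read 5.32, 5.34, 5.24 and 5.05 with control siRNA and 6.11 on both SRC-1-siRNA arrays, and rose 1.83-fold (limma adjusted p = 0.00109). REL 239486_at did not pass, at 0.41 ± 0.19 (limma adjusted p = 0.160), and its control replicate 2 (7.74) lay between the SRC-1-siRNA arrays (7.59 and 7.78).

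RELA 201783_s_at read 10.73, 10.71, 10.62 and 10.72 with control siRNA and 10.85 and 10.93 with SRC-1 siRNA under tamoxifen. The groups did not overlap, and the difference of 0.20 ± 0.07 did not pass (95% interval 0.06 to 0.34; limma adjusted p = 0.0597). Of 25 alternatives run, it passed in 2. These were quantile normalization (0.23, limma adjusted p = 0.0424) and leaving out untreated SRC-1-siRNA replicate 4, which enters only the error (0.0361). With the replicate number in the model the difference was 0.19 and did not pass (limma adjusted p = 0.260). NFKB1 209239_at, at 6.25, 6.33, 6.47 and 6.66 with control siRNA and 6.61 and 6.93 with SRC-1 siRNA, overlapped and differed by 0.34 ± 0.15 (limma adjusted p = 0.138). NFKB2 209636_at read 4.66, 4.61, 5.03 and 4.98 with control siRNA and 5.27 and 4.89 with SRC-1 siRNA, where replicate 3 fell among the controls, and differed by 0.26 ± 0.13 (limma adjusted p = 0.188). RELB 205205_at differed by 0.18 ± 0.10 (limma adjusted p = 0.255), and its 2 SRC-1-siRNA arrays, 3.95 and 3.90, lay above all 4 controls.

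Tamoxifen itself gave no call among the 19 probe sets after 2 hours. With control siRNA 0 passed by limma, beside 0.163% of all probe sets called, and 2 had an unadjusted p under 0.05. With SRC-1 siRNA 0 passed by limma, beside 1.51% of all probe sets called, and 1 had an unadjusted p under 0.05. These shares leave little to be seen in a set of 19. TNFAIP3 202644_s_at changed by 0.07 ± 0.22 with control siRNA (95% interval -0.39 to 0.53) and by 0.09 ± 0.26 with SRC-1 siRNA (-0.48 to 0.66). NFKBIA 201502_s_at changed by 0.07 ± 0.13 with control siRNA (95% interval -0.20 to 0.34). RELB 205205_at differed by -0.20 ± 0.10 with SRC-1 siRNA, where both tamoxifen arrays lay below all 4 untreated ones, and did not pass (95% interval -0.42 to 0.01; limma adjusted p = 0.317).

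Whether the knockdown effect itself differed between untreated and tamoxifen-treated cells was tested as an interaction. It passed in 0 of the 19 probe sets by limma, beside 0.280% of all probe sets called. RELA 201783_s_at was the 1 with an unadjusted p under 0.05. NFKBIE and RELB passed in untreated cells only, and the knockdown effect under tamoxifen minus that without it was -0.13 (95% interval -0.45 to 0.18) and -0.16 (-0.43 to 0.12). A difference between treatments was not shown for either gene. For TNFAIP3 the difference was 0.02 at 202644_s_at (-0.71 to 0.76) and -0.61 at 202643_s_at (-1.44 to 0.23), intervals wide enough to hold changes in either direction.

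The genes that carry the signal to NF-kappa-B mostly gave no call, which does not show that they were unchanged. Of 36 listed receptors, adaptors and kinases, 33 were measured, each by its brightest probe set. In untreated cells 4 rose and 0 fell by limma, with a median change of 0.09, and under tamoxifen 2 rose and 0 fell, with a median of 0.11. Beside these stand 4.99% and 5.76% of all probe sets higher. At an unadjusted p under 0.05, in either direction, there were 13 of the 33 in untreated cells and 11 under tamoxifen. No share of all probe sets was computed at that threshold. The genes that rose in untreated cells were MAP3K14, the kinase of the alternative arm (0.77 ± 0.11, limma adjusted p = 0.00122), RBCK1 of the linear ubiquitin ligase (0.48 ± 0.12, limma adjusted p = 0.0207), the ubiquitin ligase BIRC2 (0.24 ± 0.06) and the kinase TBK1 (0.21 ± 0.06). RBCK1 (0.61 ± 0.14) and RNF31 of the same ligase (0.32 ± 0.08) rose under tamoxifen. With the replicate number in the model only MAP3K14 remained in untreated cells and none under tamoxifen. Leaving out untreated control replicate 1 or 4 left 2 and 1 in untreated cells, and leaving out either SRC-1-siRNA array left 0 under tamoxifen. MAP3K14 differed by 0.78, 0.83, 0.56 and 0.89 at numbers 1 to 4. The receptor TLR3, without a call in untreated cells, differed there by 4.54 at number 1 and 0.88 at number 2.

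Of 18 other inhibitors and modulators of the pathway, 16 were measured. In untreated cells 2 rose and 1 fell, beside 10.4% of all probe sets called in either direction and 4.99% higher. The median change was 0.14, beside 0.00 for all probe sets. NLRC5, known as an activator of MHC class I genes and reported to restrain NF-kappa-B, rose by 1.98 ± 0.49 (limma adjusted p = 0.0218), TRAFD1 rose by 0.41 ± 0.10 and the linear-ubiquitin protease OTULIN fell (change -0.26 ± 0.07, limma adjusted p = 0.0295). NLRC5 differed by 2.82, 0.72, 0.45 and 3.92 at numbers 1 to 4, large at 1 and 4 and small at 2 and 3. Under tamoxifen 5 rose and 0 fell, beside 13.5% of all probe sets called in either direction and 5.76% higher, and the median was 0.24, beside -0.02. The largest rises were those of NLRC5 (2.04 ± 0.60), the A20-binding protein gene TNIP3 (0.55 ± 0.16), the inhibitor NFKBIB (0.52 ± 0.14) and the deubiquitinase OTUD7B (0.44 ± 0.07, limma adjusted p = 0.00274). TNIP3 was dim, at 1.72 with control siRNA and 2.41 with SRC-1 siRNA in untreated replicate 1, below the median probe set (3.47). With the replicate number in the model 0 of the calls remained in untreated cells and 1, OTUD7B, under tamoxifen. In untreated cells 0 of the 3 calls were left without control replicate 1 or SRC-1-siRNA replicate 1, and 1 without control replicate 2 or 4 or SRC-1-siRNA replicate 4. Under tamoxifen the count fell to 3, 2 and 3 without control replicate 1, 2 or 4, and to 1 and 2 without SRC-1-siRNA replicate 1 or 3.

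Of 35 other genes known as NF-kappa-B targets, 34 were measured, and 22 of these had a mean above the median probe set. In untreated cells 19 rose and 0 fell by limma, beside 4.99% of all probe sets higher, and 14 were called with the replicate number in the model. The median change was 0.29, beside 0.00 for all probe sets. The largest rises were those of the chemokine CCL5 (4.78 ± 0.39, limma adjusted p = 0.000146), the interferon IFNB1 (3.98 ± 0.67, limma adjusted p = 0.00285), the neutrophil chemokine CXCL8 (3.28 ± 0.65, limma adjusted p = 0.00708) and the T cell chemokine CXCL10 (3.13 ± 0.74, limma adjusted p = 0.0179). All 4 exceed the rise of the brightest TNFAIP3 probe set (1.48), and CCL5, IFNB1 and CXCL10 also answer to interferon signalling factors. Under tamoxifen 13 rose and 0 fell, beside 5.76% of all probe sets higher, with a median of 0.37, beside -0.02. The count was 6 with the replicate number in the model and 4 without SRC-1-siRNA replicate 1. The largest rises among the called genes were those of CCL5 (4.86 ± 0.48), IFNB1 (3.74 ± 0.82), CXCL2 (1.68 ± 0.32) and CXCL1 (1.33 ± 0.32). CXCL8 and CXCL10 were not among these. CXCL1 and CXCL2 are closely related paralogs, so their probe sets may share signal. For tamoxifen itself 0 genes of the 3 lists passed by limma with either siRNA, beside 0.163% of all probe sets with control siRNA and 1.51% with SRC-1 siRNA. At an unadjusted p under 0.05 there were 6 signalling genes, 5 inhibitors and 4 targets with control siRNA, and 5, 3 and 5 with SRC-1 siRNA. The shares above are at an adjusted p, and none was computed at this threshold, so these counts cannot be weighed.

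**Figure D5:**
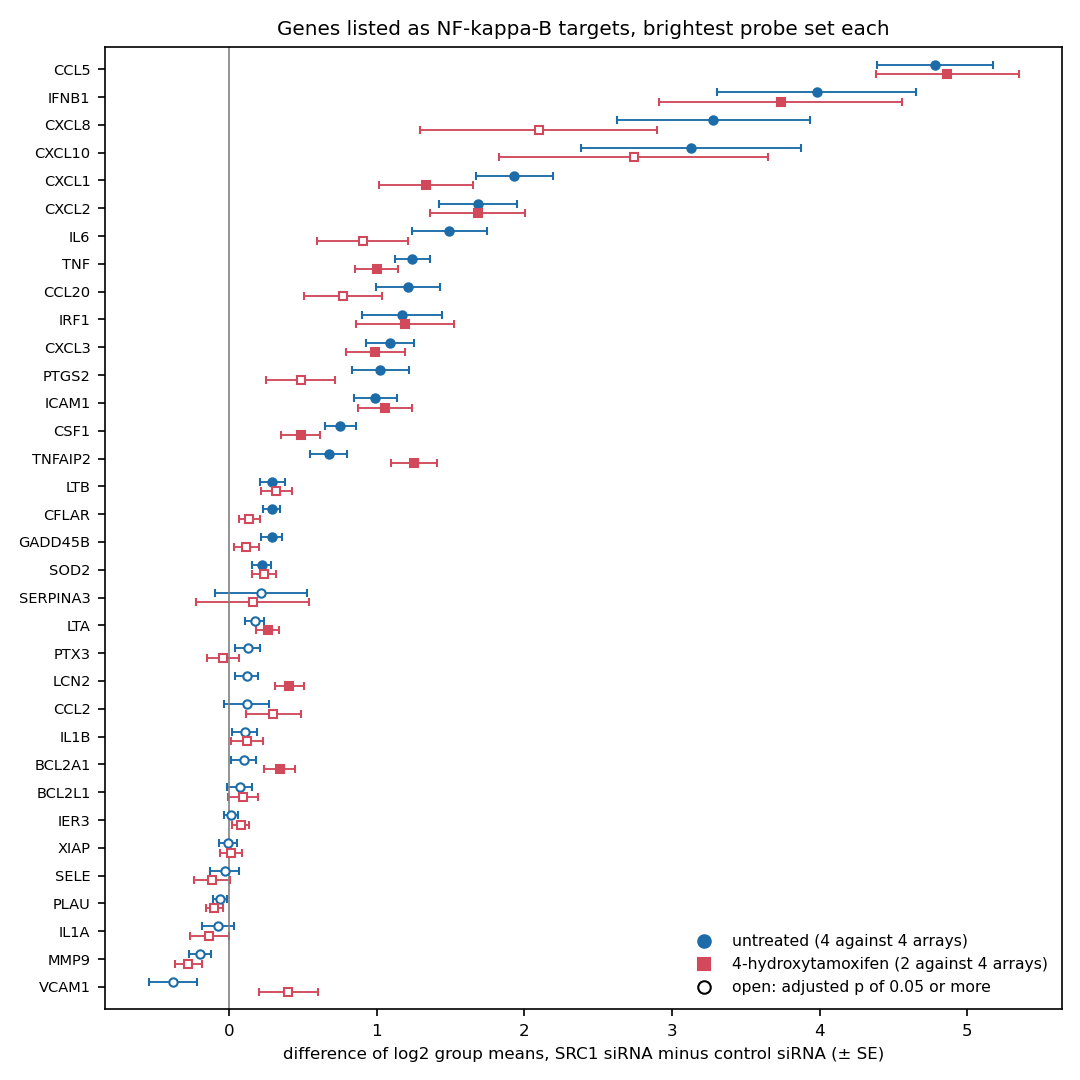
Difference of log2 group means, SRC-1 siRNA minus control siRNA (x axis, bars 1 SE from the limma fit), for the brightest probe set of the 34 measured genes listed as NF-kappa-B targets; circles are untreated cells, squares tamoxifen-treated cells, and open symbols have an adjusted p of 0.05 or more. CCL5 (4.78) and IFNB1 (3.98) lead in untreated cells, and 19 circles and 13 squares are filled.

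Several of the targets differed widely across replicate numbers. CCL5 read 5.86, 7.14, 7.47 and 6.58 on the untreated control-siRNA arrays and 12.31, 11.29, 11.33 and 11.24 on the SRC-1-siRNA arrays. IFNB1 read 4.66, 6.46, 7.08 and 5.32 with control siRNA and 11.11, 9.13, 8.84 and 10.36 with SRC-1 siRNA. Controls 1 and 4 were the lowest controls in both genes, and in IFNB1 SRC-1-siRNA replicates 1 and 4 were also the highest of their group. The differences of IFNB1 at numbers 1 to 4 were 6.45, 2.67, 1.76 and 5.04, those of CXCL8 4.37, 1.29, 1.58 and 5.88 and those of CXCL10 4.47, 1.12, 1.21 and 5.71. By contrast TNF, the classic activator and target of the pathway, differed by 1.51, 1.55, 1.05 and 0.86. Its control signal was dim, 2.55 at number 1 against 4.06 with SRC-1 siRNA. ICAM1, an adhesion receptor, differed by 1.30, 1.16, 0.82 and 0.69. Both lay closer to the pattern of NFKBIZ and TNFAIP3 202644_s_at. TNFAIP3 202643_s_at, with 2.71 and 2.86 at numbers 1 and 4 against 1.42 and 1.54 at numbers 2 and 3, lay nearer to IFNB1. Controls 1 and 4 of that probe set, 3.84 and 3.62, were likewise the lowest controls. These orders rest on 1 array per group and number and were not tested. An adjustment by replicate number could alter the order of arrays within a group. A shift common to all arrays of a number cancels in the differences between same-numbered arrays.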

How the data were processed

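Per the labels, RNA from LY2 cells was amplified and biotin-labelled before hybridisation to 14 HG-U133 Plus 2.0 arrays. The deposited values are log2 signals made by the authors, 1 per probe set and array. The log base was inferred from their range (0.91 to 15.53). R 2.9.2 is the tool named by the submitters' processing notes, and how signals were background-corrected, normalized and summarised is not stated there. Values were used as deposited. Over arrays, the 25th percentile ran from 2.17 to 2.21 and the 75th from 7.80 to 7.86, and the number of arrays limits the precision. The labels call the replicates biological and say nothing further about separate cultures, so p-values measure the spread between these arrays.

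The 62 array control probe sets were left out of 54675, leaving 54613, of which 41091 carried 1 gene symbol in the platform annotation, 1801 several and 11721 none. Groups came from the labels. With limma 3.58.1 (lmFit and eBayes, under R 4.3.3 with statmod 1.5.0), 1 model with a mean for each of the 4 groups was fitted to the 14 arrays. Its contrasts were the SRC-1 knockdown without and with tamoxifen, tamoxifen under each siRNA, and the interaction. The samples of all groups thus share 1 estimate of the spread. Comparisons share groups and are not independent. Tests are two-sided, with p-values adjusted by Benjamini-Hochberg over the 54613 probe sets and a threshold of 0.05. A gene of a list is represented by its probe set with the highest mean over all arrays. The F statistic of the replicate number compares least-squares fits with and without it. Both procedures were tested on simulated data. For limma the simulated arrays were independent, so its p-values under an adjustment by replicate number were not tested.

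The members and the lists of signalling genes, inhibitors and targets were chosen with earlier results of these data known, so their counts are descriptions. Named genes are all members with every probe set, NCOA1, and the called genes of each list with the 4 largest rises and falls. The largest rises named for a list are thus the largest among its called genes. TNF, ICAM1 and TLR3 were named after their values were seen. Kappa-B matches were sought in the RefSeq promoter table (GRCh38.p14), and gene spans are from RefSeq. Alternatives were a filter on dim probe sets, quantile normalization, centring each array on its median, a fit to the compared groups alone, a trended and robust eBayes, a model term for replicate number, averaging the probe sets of a gene, and leaving out arrays.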

Additional observations from a re-analysis of the deposited data

Results flagged for a closer look

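In 7 of the 57 groups of 4 arrays examined for the 19 probe sets, 1 array stood apart from the other 3 by Dixon's criterion. Chance alone gives this in about 1 of 20 groups. The 2 brightest REL probe sets stood apart on the same array, untreated SRC-1-siRNA replicate 4, with 10.20 at 228812_at against 10.51 on the nearest array, and 9.28 at 235242_at against 9.61. That array was the lowest of its group in 10 of the 13 probe sets called higher in untreated cells. REL 239486_at was low on untreated control-siRNA replicate 2, at 6.78 against 7.05. NFKBIA 201502_s_at was high on control-siRNA tamoxifen replicate 4, at 10.52 against 10.17, and TNFAIP3 202643_s_at was low on control-siRNA tamoxifen replicate 1, at 4.23 against 4.61. RELA 209878_s_at was high on untreated SRC-1-siRNA replicate 2, at 4.25 against 4.08. NFKB2 211524_at, a dim probe set, was low on control-siRNA tamoxifen replicate 3, at 1.67 against 1.82.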

How the results depend on the processing

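Of 36 changes (9 genes, 4 comparisons, brightest probe set), 10 passed, none of these 10 changed direction under any alternative run, and 8 lost the call under at least 1; NFKBIZ and TNFAIP3 in untreated cells kept it under all 25. Same-numbered arrays deviated from their group means in opposite directions (correlation over probe sets from -0.58 to -0.04, median -0.33, 18 pairs), so the numbers did not meet the measure of pairing used here, a correlation over 0.1. This does not show that the numbers mark no shared batch: the means of the numbers were nearly equal (median F of 0.0428, against 0.871 for independent arrays), as they would be had differences between numbers been taken out before deposit. In that case p-values without the replicate block are too small and the counts with it are the ones to read. The shares of all probe sets given beside the counts are from the fit without it, and those with it were not computed. With the replicate block, calls under tamoxifen numbered 4 for the members (10 without it), 0 for signalling genes (2), 1 for inhibitors (5) and 6 for targets (13), and in untreated cells 1 for signalling genes (4) and 0 for inhibitors (3). Only the arrays compared gave 1 signalling gene under tamoxifen. Leaving out arrays, counts in untreated cells ran from 9 to 13 for the member probe sets, 1 to 6 for signalling genes, 0 to 4 for inhibitors and 12 to 18 for targets. Under tamoxifen they ran from 2 to 11, 0 to 3, 0 to 6 and 2 to 15.

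Directions turned only among changes that had not passed. NFKB1 in untreated cells was -0.014 after quantile normalization. Averaging the probe sets of a gene, tamoxifen with control siRNA gave 0.028 for RELA and -0.036 for NFKBIA, and with SRC-1 siRNA -0.0073 for REL, -0.054 for NFKBIA and -0.12 for TNFAIP3. Leaving out arrays, the knockdown change in untreated cells ran from -0.15 to 0.092 for NFKB1 and from -0.033 to 0.059 for RELA. Tamoxifen with control siRNA ran from -0.13 to 0.063 for NFKB2, -0.11 to 0.042 for RELB, -0.067 to 0.19 for NFKBIA and -0.047 to 0.18 for TNFAIP3. With SRC-1 siRNA it ran from -0.11 to 0.31 for NFKB1, -0.090 to 0.29 for NFKB2, -0.054 to 0.17 for NFKBIA, -0.017 to 0.14 for NFKBIE, -0.043 to 0.31 for NFKBIZ and -0.16 to 0.43 for TNFAIP3. A group reduced to 1 array took its spread from the remaining groups. Low signals lie near a floor, so changes of dim probe sets such as those of NFKB2 may be understated.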
